A study of Rattus norvegicus with 8 samples.

Results

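The pyruvate dehydrogenase complex and the kinases that switch it off were followed as transcripts in rat hippocampus under low air pressure. The set was taken by gene name: every non-control probe whose annotated name was Pdk1, Pdk2, Pdk3, Pdk4, Pdha1, Pdhb, Dlat, Pdhx or Dld. That gave 11 of the 30367 probes on the array, for 9 genes, of which 8 were among the 21296 genes that passed the filter on dim signals. Total RNA came from the hippocampus of male Sprague Dawley rats, whose age is not given in the sources used here. The control rats breathed normal air (normoxia), and the others were exposed in a decompression chamber to hypobaric hypoxia, low air pressure equivalent to 25000 ft with an effective oxygen concentration of 8%, for 1 day, 3 days or a longer time. The titles of the last group say day 7 and its exposure field says 5 days, so it is called day 7 here and its true length is not known. Each of the 4 groups had 2 single-colour Agilent arrays, and the labels do not tell whether a group's arrays stand for different rats; p-values therefore describe the scatter between arrays, which may be technical.

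The complex stands between glycolysis and the tricarboxylic acid cycle: inside mitochondria it turns pyruvate into acetyl-CoA. Its first enzyme, pyruvate dehydrogenase, is built from an alpha subunit (Pdha1) and a beta subunit (Pdhb). Dlat is the acetyltransferase at its core, Pdhx the protein that anchors the dihydrolipoamide dehydrogenase Dld to that core. The kinases Pdk1 to Pdk4 phosphorylate the alpha subunit and turn the complex off, and the phosphatases Pdp1 and Pdp2 turn it on again. In cultured cells Pdk1 is a well-known target of the hypoxia-inducible factor, and neurons rely on the complex because they draw most of their acetyl-CoA from glucose.

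Levels are log2 signals relative to the 75th percentile of the same array, so they compare 1 probe between arrays and not 1 gene with another. Changes are log2 differences of group means with their standard error, n = 2 arrays in each group, and a gene is called changed at an adjusted p under 0.05 by limma with Benjamini-Hochberg adjustment over all 21296 genes. A large part of the array was called: 35.5% of all genes on day 1, 50.3% on day 3 and 61.3% on day 7, each against normoxia. The arrays differed in ways that touch every gene. This percentile stood at 2684 and 2321 on the normoxia arrays, 2214 and 2247 on the day 1 arrays, 1710 and 1566 on the day 3 arrays, and 1407 and 1393 on the day 7 arrays. The 8 arrays shared 1 slide and 1 scan session, but normoxia and day 1 filled slide row 1 and day 3 and day 7 filled row 2. Slide row and group therefore cannot be told apart when day 3 or day 7 is set against normoxia or against day 1. Within the rows, normoxia and day 3 filled columns 1 and 2, and day 1 and day 7 filled columns 3 and 4. Slide column and group likewise cannot be told apart for day 1 against normoxia or for day 7 against day 3. For day 7 against normoxia and for day 3 against day 1, both row and column differ with the group. On 1250 probes printed on 10 spots each, the arrays within a group lay apart by a median of 0.042 for normoxia, 0.019 for day 1, 0.031 for day 3 and 0.028 for day 7. Spot-to-spot variation alone would give 0.014, 0.017, 0.019 and 0.023 for these groups. Markers of neighbouring tissue and blood differed between groups. The summed signal of 10 choroid plexus markers, as a multiple of the 75th percentile, was 120 and 130 on the normoxia arrays, 1.78 and 1.84 on the day 1 arrays, 173 and 161 on the day 3 arrays, and 10.6 and 9.81 on the day 7 arrays. This sum is carried by Ttr; gene by gene, 10 of 10 fell on day 1, 3 rose and 3 fell on day 3 (median -0.21), and 10 of 10 fell on day 7. That of 9 striatal markers was 7.23 and 7.20 on the normoxia arrays, 52.0 and 51.5 on the day 1 arrays, 5.63 and 5.77 on the day 3 arrays, and 5.51 and 5.23 on the day 7 arrays. That of 9 hippocampal markers, to which Fibcd1 gives the most, lay between 31.0 and 45.5. Of these 9 genes, 1 rose and 6 fell on day 1 (median -0.29), 5 rose and 1 fell on day 3 (0.18), and 2 rose and 5 fell on day 7 (-0.31). Red blood cell genes, 5 in number, summed to 120 and 133 on the normoxia arrays, 210 and 203 on the day 1 arrays, 327 and 306 on the day 3 arrays, and 387 and 367 on the day 7 arrays. In tissue RNA of this kind, fewer cells of a type and less RNA per cell cannot be told apart.

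Pdk1, the kinase of the set best known from hypoxia, rose on day 1 and, on the scale used here, lay below normoxia on days 3 and 7. Its probe is 60 bases long, starts at base 689 of the transcript and spans chr3:54302974-54303274 on the plus strand of rat build rn4, 301 genomic bases, so it lies across an exon junction. It is shown because the day 1 rise rests on this probe alone.
Pdk1 probe: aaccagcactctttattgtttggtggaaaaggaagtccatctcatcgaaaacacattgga
The level of Pdk1 was -2.08 and -2.15 on the normoxia arrays, -1.76 and -1.77 on the day 1 arrays, -2.42 and -2.37 on the day 3 arrays, and -2.43 and -2.45 on the day 7 arrays. Both day 1 arrays lay above both normoxia arrays, and all 4 later arrays lay below them. The day 1 difference was 0.35 ± 0.04, or 127% of normoxia (limma, adjusted p = 0.00278). On day 3 it was -0.28 ± 0.04 (82.4% of normoxia, adjusted p = 0.00331), and on day 7 it was -0.33 ± 0.04 (79.7% of normoxia, adjusted p = 0.00123). The 2 spots of the probe gave day 1 differences of 0.34 and 0.36 on their own. On day 3 they gave -0.20 and -0.36, and on day 7 -0.37 and -0.29. The largest step was between the first and second exposure group: day 3 lay at 64.7% of day 1, a difference of -0.63 ± 0.04 (limma, adjusted p = 0.000294). This step was called in all 18 alternatives of scaling, background correction, filter, probe choice, model and arrays used. The late position below normoxia depended on how the arrays were scaled. With each array centred on its median in place of its 75th percentile, the day 3 difference was -0.13 (adjusted p = 0.0671) and the day 7 difference -0.03 (adjusted p = 0.587). The day 1 rise was not called on unscaled signals, where it was 0.19 (adjusted p = 0.262). The day 1 arrays are also those with the striatal signal given above, and its part in the day 1 value was not tested.

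**Figure D1:**
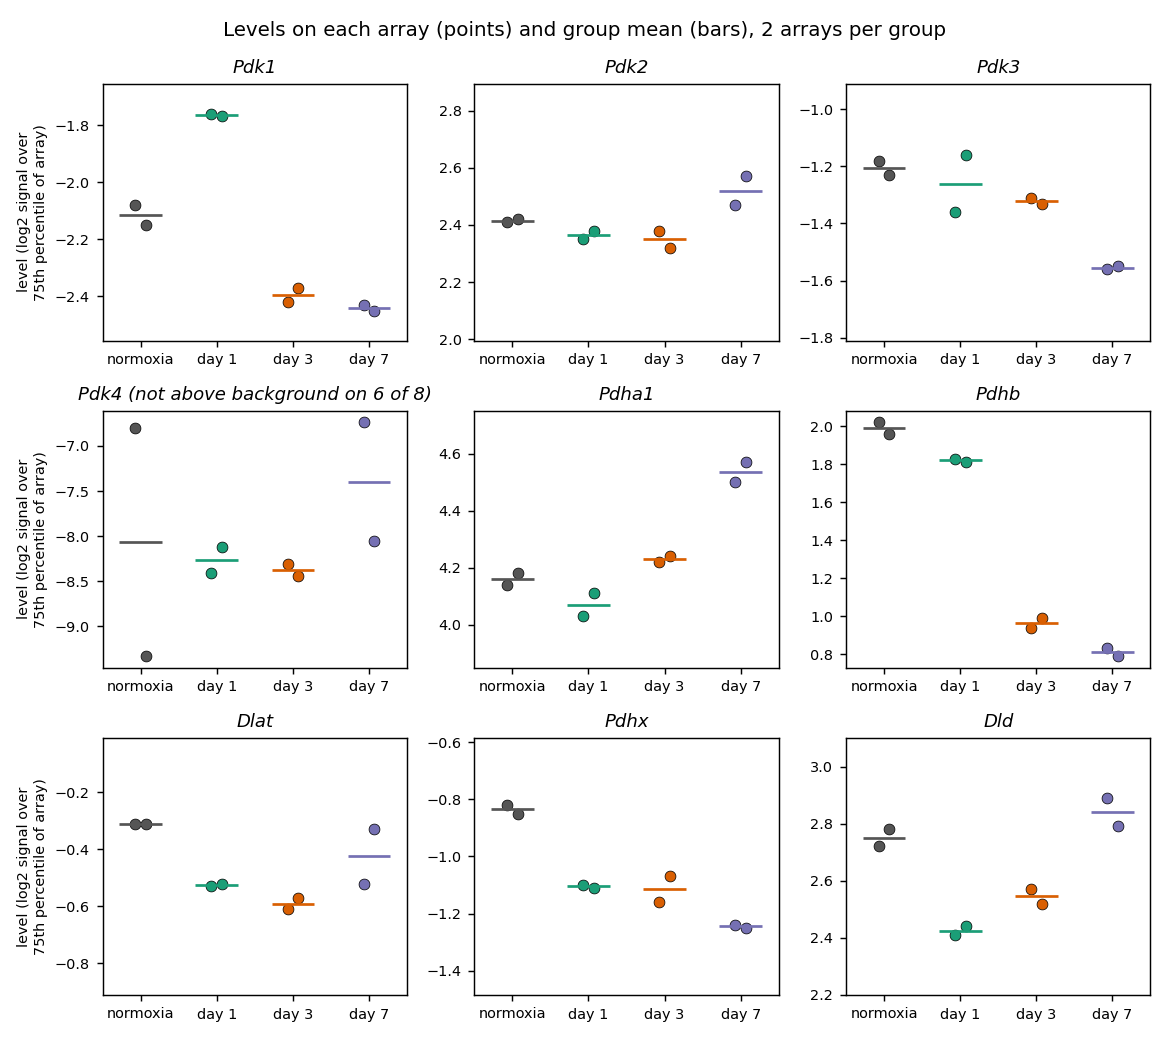
Level of each gene on each of the 8 arrays, as log2 signal relative to the array's 75th percentile (vertical axis, own range per panel), in normoxia and on days 1, 3 and 7. Points are arrays and bars are group means of 2 arrays; Pdk1 is high on day 1 (-1.76 and -1.77), Pdhb is low on days 3 and 7, and the Pdk4 panel shows a probe that was well above background on 2 of 8 arrays.

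The genes whose course over the 8 arrays was most like that of Pdk1 were Egr2 (Pearson r = 0.9965), a transcription factor of the immediate early class, Raly (r = 0.9959), an RNA-binding protein, and Il6st (r = 0.9950), the signalling chain of the interleukin-6 receptor family. They were the top 3 of 6155 genes whose group means spanned at least as much as those of Pdk1. Group means of Egr2 were -2.19 for normoxia, -1.58 for day 1, -2.70 for day 3 and -2.78 for day 7, so it too was highest in the day 1 group and lowest in the day 7 group. As many as 212 of those 6155 genes had an r over 0.95, and the 8 points fall into 4 groups of 2, so the likeness is a description only.

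The promoter of Pdk1 is shown because ACGTG, a form of the core of the binding sequence of the hypoxia-inducible factor, occurs in it. It was looked for on either strand, and other forms of the core were not looked for. The window runs from 250 bases before the transcription start to 50 bases after it, taken from RefSeq on rat build GRCr8. For Pdk1 this is chr3:77113264-77113563 on the plus strand, and the capitals mark matches.
Pdk1 promoter: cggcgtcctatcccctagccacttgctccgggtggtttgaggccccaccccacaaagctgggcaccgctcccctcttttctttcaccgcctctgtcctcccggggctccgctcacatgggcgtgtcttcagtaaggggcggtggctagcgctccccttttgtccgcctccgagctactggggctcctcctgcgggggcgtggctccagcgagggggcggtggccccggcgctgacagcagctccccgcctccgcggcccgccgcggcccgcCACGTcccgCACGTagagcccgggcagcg
Both matches read CACGT, the reverse complement, and start 21 and 30 bases after the transcription start. Of the 9 genes, 5 held a match in this window: Pdk1, Pdk2, Pdk3, Dlat and Pdhb. In Pdhb there were 2 sites of CACGTG, which reads the same on both strands and so counts once for each strand. Pdhb is shown as the gene with the largest change; its window is chr15:19182539-19182838 on the plus strand.
Pdhb promoter: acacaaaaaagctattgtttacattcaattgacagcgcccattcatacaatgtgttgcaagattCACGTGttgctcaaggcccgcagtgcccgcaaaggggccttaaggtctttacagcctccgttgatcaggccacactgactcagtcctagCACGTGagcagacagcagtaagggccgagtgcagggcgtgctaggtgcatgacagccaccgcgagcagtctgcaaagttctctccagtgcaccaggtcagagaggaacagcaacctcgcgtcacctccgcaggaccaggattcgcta
Of all 33469 RefSeq promoter windows of this length, 19.3% held at least 1 match and 7.6% held 2 or more, with both strands counted. The letters are a description of the sequence and not evidence of binding.

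The other kinases gave smaller or later differences. Pdk2, the most widely expressed kinase of the family, was not called in any comparison with normoxia. Its levels were 2.41 and 2.42 on the normoxia arrays, 2.35 and 2.38 on the day 1 arrays, 2.38 and 2.32 on the day 3 arrays, and 2.47 and 2.57 on the day 7 arrays. The 8 values lay within a narrow band, with day 7 highest. Its day 7 difference was 0.11 ± 0.05, with a 95% interval of -0.01 to 0.23 (limma, adjusted p = 0.102). The same difference was -0.11 after quantile normalization and 0.40 after median centring, so its direction depended on the scaling. Day 7 lay above day 3 by 0.17 ± 0.05 (adjusted p = 0.0357), a call that was lost in 10 of 19 alternatives and turned to -0.05 on unscaled signals.

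Pdk3, a kinase that is little inhibited by pyruvate, fell on day 7. Its levels were -1.18 and -1.23 on the normoxia arrays, -1.36 and -1.16 on the day 1 arrays, -1.31 and -1.33 on the day 3 arrays, and -1.56 and -1.55 on the day 7 arrays. The day 1 arrays bracketed the normoxia arrays, and both day 7 arrays lay below all others. The day 7 difference was -0.35 ± 0.07, or 78.4% of normoxia (limma, adjusted p = 0.00822). It was -0.06 under median centring (adjusted p = 0.526) and was called in the other 18 alternatives.

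Pdk4, the kinase that responds to fasting and fatty acids in muscle and liver, could not be measured. Its probe, from base 739 of the transcript, spans chr4:30239150-30241038 on the minus strand of rn4, again across an exon junction, and is shown because the gene is known here only through it.
Pdk4 probe: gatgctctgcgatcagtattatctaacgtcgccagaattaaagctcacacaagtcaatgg
The probe was well above background on 2 of 8 arrays, the first day 7 array and the first normoxia array, and on each of these through a single spot of 2. The spots read 3.35 and 51.5 on that day 7 array, and 6.04 and 96.7 on that normoxia array. On the other 6 arrays all spots lay between 3.39 and 10.6. With no filter on dim signals, the day 7 difference was 0.67 ± 0.90, with a 95% interval of -1.65 to 2.98, which covers falls and rises alike. Angptl4, a secreted inhibitor of lipoprotein lipase that shares its main inducers with Pdk4 in other tissues, was well measured and rose on every day: its level was 1.08 and 1.16 on the normoxia arrays, 1.81 and 1.79 on the day 1 arrays, 1.60 and 1.65 on the day 3 arrays, and 2.21 and 2.16 on the day 7 arrays.

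**Figure D2:**
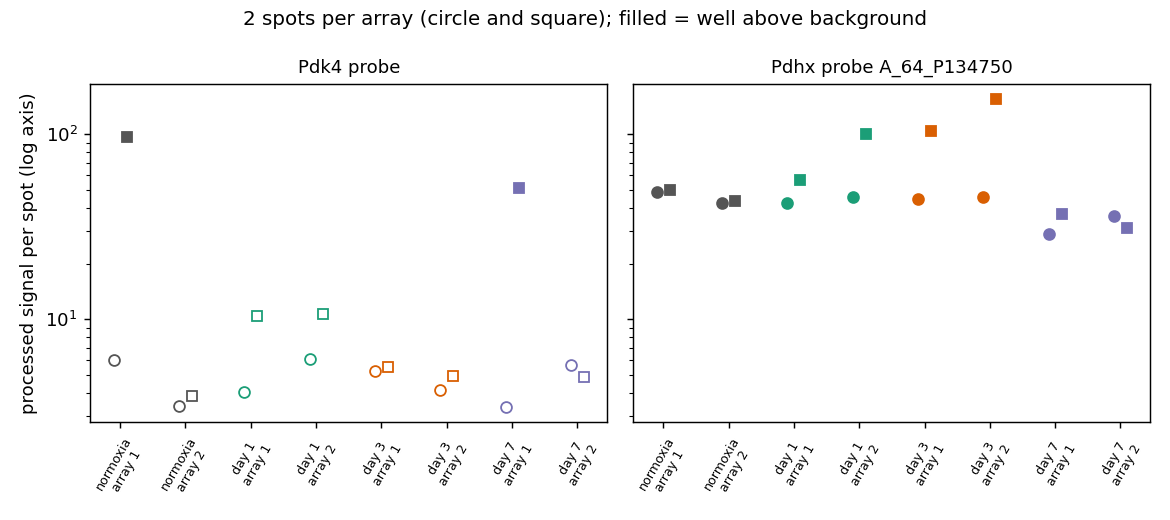
Processed signal of each spot (log axis) for the Pdk4 probe (left) and the dim Pdhx probe (right) on the 8 arrays in the order normoxia, day 1, day 3, day 7. Circle and square are the same 2 spots throughout and filled marks are well above background; the high Pdk4 values of 51.5 (day 7) and 96.7 (normoxia) each come from 1 spot, and the Pdhx spots part on days 1 and 3.

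Among the subunits, Pdhb fell by far the most. Its only probe starts at base 892 of the transcript and spans chr15:18740251-18740642 on the plus strand of rn4, 392 genomic bases across an exon junction.
Pdhb probe: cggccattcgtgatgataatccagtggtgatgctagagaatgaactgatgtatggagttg
The level of Pdhb was 2.02 and 1.96 on the normoxia arrays, 1.83 and 1.81 on the day 1 arrays, 0.94 and 0.99 on the day 3 arrays, and 0.83 and 0.79 on the day 7 arrays. The 4 groups did not overlap, and the widest gap was between day 1 and day 3. On day 3 the difference from normoxia was -1.03 ± 0.04, or 49.1% of normoxia (limma, adjusted p = 0.000131). On day 7 it was -1.18 ± 0.04, or 44.1% (adjusted p = 4.61e-05). Both spots of the probe gave -1.03 on day 3 and -1.18 on day 7. Day 3 against day 1 gave -0.85 ± 0.04 (adjusted p = 0.000176). The falls on days 3 and 7 were called in all 19 alternatives of each comparison, with values of -1.63 to -0.88 on day 3 and -2.02 to -0.89 on day 7. All of these alternatives use the same probe, and none changes its position on the transcript or the slide row or column of the arrays. The day 1 value was -0.17 ± 0.04 (adjusted p = 0.0304), and that call was lost in 12 of 18 alternatives. Of all 21296 genes, 1459 had a lower difference than Pdhb on day 3 and 1736 on day 7.

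Its partner in the same enzyme, Pdha1, rose on day 7. The level of Pdha1 was 4.14 and 4.18 on the normoxia arrays, 4.03 and 4.11 on the day 1 arrays, 4.22 and 4.24 on the day 3 arrays, and 4.50 and 4.57 on the day 7 arrays. The day 7 arrays lay above all others. The day 7 difference was 0.38 ± 0.05, or 130% of normoxia (limma, adjusted p = 0.00131). A second probe of the gene, which has 1 spot per array, gave 0.35 on day 7. The rise was 0.10 after quantile normalization (adjusted p = 0.114) and 0.04 after cyclic loess (adjusted p = 0.490), which removes trends of the change with signal level. It was 0.12 after removal of the trend with probe GC (adjusted p = 0.0903), and on unscaled signals it turned to -0.45 (adjusted p = 0.00644). The opposite signs of Pdhb and Pdha1 on day 7 thus held in every alternative but that of the unscaled signals, whereas the rise of Pdha1 itself was called in 15 of 19.

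Dlat, the acetyltransferase of the core, had levels of -0.31 on both normoxia arrays, -0.53 and -0.52 on the day 1 arrays, -0.61 and -0.57 on the day 3 arrays, and -0.52 and -0.33 on the day 7 arrays. Days 1 and 3 lay below normoxia, and the day 7 arrays were apart from each other. It fell on day 3, by 0.27 on the log2 scale (-0.27 ± 0.07, limma, adjusted p = 0.0203), a call lost in 5 of 19 alternatives. Its day 1 value was -0.21 ± 0.07 (adjusted p = 0.0589), and its day 7 value was -0.11 ± 0.07 (adjusted p = 0.201).

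Dld, the dehydrogenase that the complex shares with the 2-oxoglutarate and branched-chain complexes, fell on days 1 and 3. Its levels were 2.72 and 2.78 on the normoxia arrays, 2.41 and 2.44 on the day 1 arrays, 2.57 and 2.52 on the day 3 arrays, and 2.89 and 2.79 on the day 7 arrays. The day 1 difference was -0.32 ± 0.05, or 79.8% of normoxia (limma, adjusted p = 0.00686), and it was called in all 18 alternatives. The part of the choroid plexus and striatal signals given above in this and the other members' day 1 values was not tested. The day 3 difference was -0.20 ± 0.05 (adjusted p = 0.0207), lost in 3 of 19. On day 7 it was 0.09 ± 0.05 (adjusted p = 0.166), with -0.14 after quantile normalization, -0.13 after cyclic loess, -0.74 on unscaled signals and 0.39 under median centring, so its direction depended on the scaling. Day 7 lay above day 3 by 0.30 ± 0.05 (adjusted p = 0.00761).

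Pdhx, the anchor protein, was read by a pair of probes that disagreed, and both are shown for that reason. The brighter one, on chr3:88245090-88245149 of the minus strand of rn4, has 1 spot per array and stands for the gene in the tests. The other, on chr3:88240518-88240577, has 2.
Pdhx brighter probe: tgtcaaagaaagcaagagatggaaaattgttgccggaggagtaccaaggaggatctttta
Pdhx dimmer probe: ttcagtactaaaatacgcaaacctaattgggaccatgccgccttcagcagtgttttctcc
The brighter probe read -0.82 and -0.85 on the normoxia arrays, -1.10 and -1.11 on the day 1 arrays, -1.16 and -1.07 on the day 3 arrays, and -1.24 and -1.25 on the day 7 arrays. All exposed arrays lay below normoxia, with differences of -0.27 ± 0.04 on day 1 (limma, adjusted p = 0.00801), -0.28 ± 0.04 on day 3 (adjusted p = 0.0045) and -0.41 ± 0.04 on day 7 (adjusted p = 0.000741). Under median centring the day 3 and day 7 values were -0.13 and -0.12 (adjusted p = 0.0918 and 0.11), and with normexp background correction those of days 1 and 3 were -0.24 and -0.17 (adjusted p = 0.154 and 0.234). The dimmer probe read -5.76 and -5.75 on the normoxia arrays, -5.50 and -5.05 on the day 1 arrays, -4.65 and -4.22 on the day 3 arrays, and -5.43 and -5.38 on the day 7 arrays. It lay above normoxia throughout, by 1.32 ± 0.19 on day 3 (limma over 24678 probes, adjusted p = 0.0038). Its spots did not agree: on day 3 one gave 0.59 and the other 2.05, and the largest gap between them on an array was 1.76. Averaged over both probes, Pdhx on day 3 was 0.52 above normoxia (adjusted p = 0.0131) and on day 7 it was at -0.03 (adjusted p = 0.83), so the direction of Pdhx depends on the probe used.

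Counted together, 4, 5 and 5 of the 8 tested genes were called on days 1, 3 and 7. On day 1, 1 of the 8 tested genes was higher and 3 were lower, where 15.3% of all genes were higher and 20.2% lower. On day 3, 5 were lower and 0 higher (also 0 at an unadjusted p under 0.05; the lower ones were Pdk1, Pdhb, Dlat, Pdhx and Dld), where 24.2% of all genes were higher and 26.2% lower. On day 7, 1 was higher (Pdha1) and 4 were lower (Pdk1, Pdk3, Pdhb and Pdhx), where 31.5% were higher and 29.7% lower. Median differences of the 8 were -0.13, -0.24 and -0.22 on days 1, 3 and 7, with -0.068, -0.051 and -0.033 over all genes. Day 3 against day 1 gave 1 higher and 2 lower, beside 51.2% of all genes called (28.2% higher and 23% lower). Day 7 against day 3 gave 3 higher and 2 lower, beside 42.4% (24.2% higher and 18.3% lower). All 3 comparisons with normoxia share its 2 arrays. By role, 1 of 3 tested kinases and 3 of 5 subunits were called on day 1. On day 3 it was 1 kinase with 4 subunits, and by day 7 it was 2 kinases with 3 subunits. A difference among the 4 groups was called by the moderated F-test of limma for 7 of the 8 genes, beside 72.1% of all genes; the exception was Pdk2 (adjusted p = 0.0618).

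On days 3 and 7 the members' changes ran in much the same order as the place of the probe on its transcript. By the start of the probe the tested genes ran Pdk1 (689), Pdhb (892), Pdk3 (1152), Pdhx (1214), Dlat (1657), Dld (1832), Pdk2 (2017) and Pdha1 (2647). In this order the day 7 differences were -0.33, -1.18, -0.35 and -0.41 for the 4 most upstream probes and -0.11, 0.09, 0.11 and 0.38 for the 4 others. The Spearman correlation of the change with that start over these 8 genes was -0.24 for day 1, 0.83 for day 3 and 0.83 for day 7. It is a description of 8 probes that share the same arrays. Over 13646 genes whose probe is placed on a RefSeq mRNA it was 0.12, 0.16 and 0.16 for these days. The Pdhx start is counted on a transcript that is not among these RefSeq mRNAs. The changes went with the signal level too. Their Spearman correlation with the mean level was -0.36, 0.55 and 0.64 for days 1, 3 and 7 over the 8 members, and 0.22, 0.38 and 0.43 over all 21296 genes. A closer view came from transcripts with several kept probes, where the gene is the same. Of 2011 such transcripts with probes at least 200 bases apart, the upstream probe had the lower change in 47.0% of cases on day 1, in 76.5% on day 3 and in 80.5% on day 7. The median of its change minus that of the downstream probe was 0.03 for day 1, -0.32 for day 3 and -0.59 for day 7. Among the 313 pairs whose levels were within 1 log2 of each other, the median was -0.02 for day 1, -0.15 for day 3 and -0.27 for day 7, and the upstream probe was the lower one in 53.0%, 63.6% and 67.4%. Over all 2011 the difference between the probes correlated with their difference in level at -0.02, 0.37 and 0.43 (Spearman). The RNA was labelled from an oligo-dT primer, at the 3′ end. Starts are counted from the first base of the transcript, and the distance of a probe from the 3′ end was not computed. Pdhb has 1 probe, so its own difference along the transcript was not measured. The part of probe position and of signal level in the values of days 3 and 7 was not tested. For day 1 the upstream probe was the lower one in close to as many transcripts as not, as given above.

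**Figure D3:**
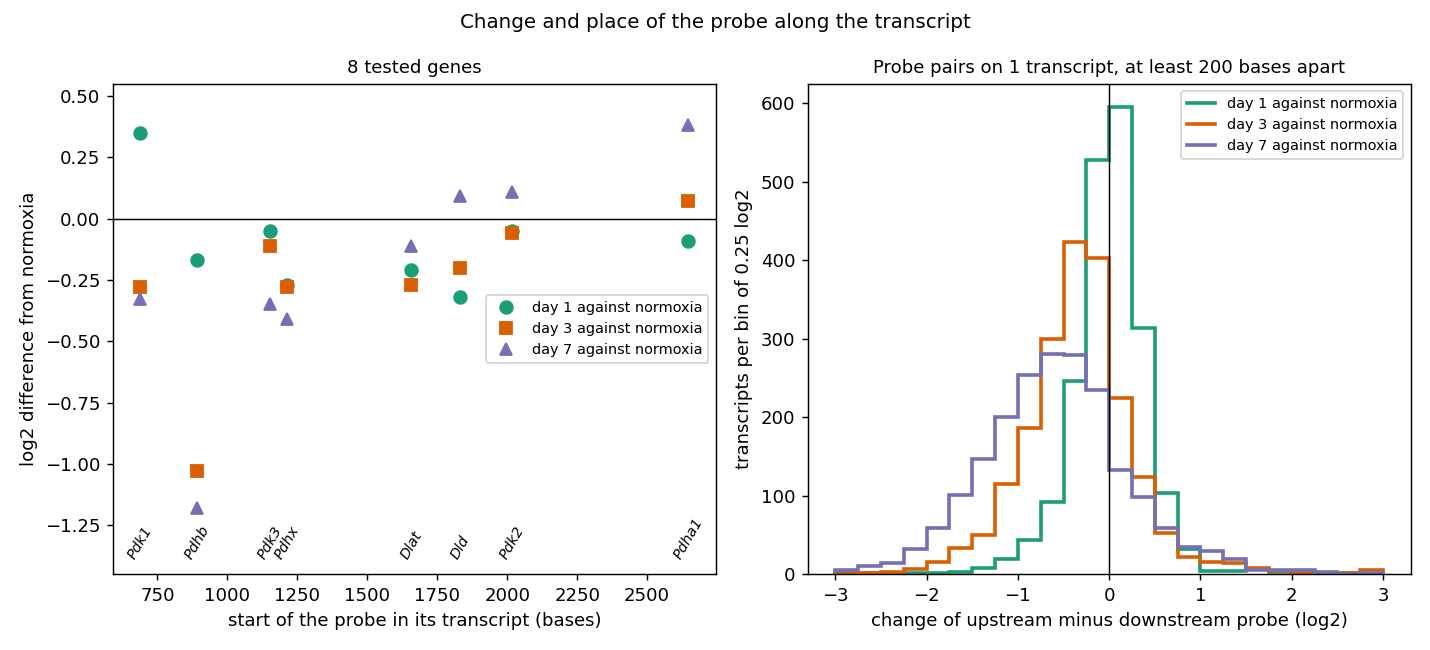
Left, log2 difference from normoxia on days 1, 3 and 7 (vertical axis) against the start of the probe in its transcript in bases, for the 8 tested genes. Right, numbers of transcripts by the change of the upstream probe minus that of the downstream probe for 2011 transcripts (values beyond 3 log2 placed in the end bins); the distribution lies around 0.03 on day 1 and is shifted to a median of -0.32 on day 3 and -0.59 on day 7.

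Other genes around pyruvate were read from lists chosen for their role. The part of probe position and signal level in their day 3 and day 7 values was not tested either. The counts of all these lists stand beside 15.3% of all genes higher and 20.2% lower on day 1. On day 3 these shares were 24.2% and 26.2%, and on day 7 they were 31.5% and 29.7%. List medians stand beside -0.068, -0.051 and -0.033 over all genes on days 1, 3 and 7. No list was tested against these shares. Of the 3 phosphatase genes, Pdp1, the calcium-stimulated phosphatase that reactivates the complex, had levels of 1.66 and 1.54 on the normoxia arrays, 1.75 and 1.77 on the day 1 arrays, 0.88 and 0.85 on the day 3 arrays, and 1.20 and 1.27 on the day 7 arrays. It fell by 0.73 on the log2 scale on day 3 (limma, adjusted p = 0.000524) and by 0.37 on day 7 (adjusted p = 0.00295). Pdp2, the other catalytic subunit, fell on day 1 (-0.62, adjusted p = 0.000992) and day 3 (-0.24, adjusted p = 0.0124) and was at -0.05 on day 7. Pdpr, the regulatory subunit, fell on day 7 (-0.59, adjusted p = 0.0275) at a dim signal. In number, 1 fell on day 1, 2 on day 3 and 2 on day 7, with list medians of 0.16, -0.41 and -0.37.

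Of 8 genes for pyruvate entry and its other uses, 1 rose and 2 fell on day 1, 3 rose and 5 fell on day 3, and 3 rose and 5 fell on day 7. Their medians were 0.00, -0.30 and -0.18. Ldha, the lactate dehydrogenase subunit that favours lactate, rose on all days: its levels were 5.16 on both normoxia arrays, 5.52 and 5.54 on the day 1 arrays, 5.59 on both day 3 arrays, and 5.53 and 5.72 on the day 7 arrays. The differences were 0.37, 0.43 and 0.46 (limma, adjusted p = 0.0109, 0.00442 and 0.00228). The subunits of the mitochondrial pyruvate carrier differed: Mpc1 rose on day 3 (0.18, adjusted p = 0.0133) and day 7 (0.49, adjusted p = 0.000267), and Mpc2 fell on days 1, 3 and 7 (-0.31, -0.37 and -0.23, adjusted p = 0.0209, 0.0077 and 0.03). The second Mpc2 probe gave -0.26, -0.21 and -0.03. Pc, pyruvate carboxylase, fell on day 3 (-0.35) and day 7 (-0.54, adjusted p = 0.0002). Gpt2, a mitochondrial alanine aminotransferase, fell most, with -1.06 on day 3 and -2.09 on day 7 (adjusted p = 0.000221). Its signal was dim, with levels of -4.73 and -4.67 on the normoxia arrays and -6.88 and -6.7 on the day 7 arrays. Me1, cytosolic malic enzyme, rose on day 3 (0.25, adjusted p = 0.004) and day 7 (0.67, adjusted p = 0.000108), but its dimmer second probe gave -0.32 and -0.04.

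The sister complexes share Dld and the same architecture. Of their 8 genes, 3 fell on day 1, 1 rose and 4 fell on day 3, and 1 rose and 5 fell on day 7, with medians of -0.07, -0.33 and -0.48. Ogdhl, a brain form of the 2-oxoglutarate dehydrogenase, had levels of -1.41 and -1.37 on the normoxia arrays, -1.42 and -1.48 on the day 1 arrays, -2.34 and -2.32 on the day 3 arrays, and -2.65 and -2.62 on the day 7 arrays. Its differences of -0.94 on day 3 (limma, adjusted p = 0.000124) and -1.25 on day 7 (adjusted p = 3.35e-05) were of the size seen for Pdhb. Ogdh fell on day 3 (-0.83, adjusted p = 0.00743) and day 7 (-1.58, adjusted p = 0.000516), with -0.57 and -0.97 on its second probe. Bckdk, the kinase of the branched-chain complex, fell on all 3 days (-0.32, -0.42 and -0.67), and Dbt, that complex's core, rose on day 7 (0.46, adjusted p = 0.000507).

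Of 14 genes of the tricarboxylic acid cycle, 6 fell on day 1, 2 rose and 8 fell on day 3, and 5 rose and 6 fell on day 7. The medians were -0.17, -0.15 and 0.00. Mdh2, malate dehydrogenase, fell on day 3 (-0.55, limma, adjusted p = 0.0012) and day 7 (-0.63, adjusted p = 0.000422). Idh3a, the catalytic subunit of isocitrate dehydrogenase, fell on day 3 (-0.27, adjusted p = 0.00644) and day 7 (-0.42, adjusted p = 0.000916). Idh3g, a regulatory subunit of the same enzyme, fell on day 1 (-0.22, adjusted p = 0.0209) and rose on day 7 (0.50, adjusted p = 0.000541). Sdhd, a membrane anchor of succinate dehydrogenase, fell on day 1 (-0.14) and rose on days 3 and 7 (0.21 and 0.38, adjusted p = 0.00637 and 0.000572). Opposite signs for subunits of 1 enzyme were thus seen outside the pyruvate dehydrogenase complex too.

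Of 6 genes for lipoylation and thiamine supply, on which the complex depends for its cofactors, 0 were called on day 1 by limma (1 at an unadjusted p under 0.05), 1 fell on day 3, and 2 rose and 2 fell on day 7. The medians were -0.14, -0.10 and -0.32. Slc19a3, a thiamine transporter, fell on day 3 (-0.80) and day 7 (-1.27, adjusted p = 0.00184). Its signal was dim, with levels of -5.29 and -5.61 on the normoxia arrays and -6.54 and -6.91 on the day 7 arrays. Lias, lipoic acid synthase, rose on day 7 (0.31, adjusted p = 0.0194), as did Lipt2, an octanoyltransferase of the same pathway (0.20, adjusted p = 0.0341). Lipt1, a lipoyltransferase, fell on day 7 (-0.58, adjusted p = 0.0118) at a dim signal, with levels of -4.58 and -4.75 on the normoxia arrays. Of 11 genes of fatty acid oxidation and other targets of the PPAR receptors, 3 rose and 3 fell on day 1, 4 rose and 4 fell on day 3, and 3 rose and 6 fell on day 7, with medians of 0.03, -0.01 and -0.15. Angptl4 rose by 0.68, 0.51 and 1.07 on days 1, 3 and 7 (adjusted p = 0.000612, 0.000813 and 5.99e-05). Hadha and Hadhb, the subunits of the mitochondrial trifunctional protein, fell on day 3 (-0.6 and -0.5, adjusted p = 0.000321 and 0.00101). They fell on day 7 too (-1.23 and -0.73, adjusted p = 3.35e-05 and 0.000169). The second Hadha probe gave -0.32 on day 3 and -0.66 on day 7. Acot1, a cytosolic acyl-CoA thioesterase, fell on days 1, 3 and 7 (-0.19, -0.60 and -0.15, adjusted p = 0.0163, 0.000318 and 0.0168).

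Of 8 tested genes for regulators known to act on Pdk genes, 2 fell on day 1, 3 rose and 3 fell on day 3, and 1 rose and 5 fell on day 7, with medians of -0.06, -0.21 and -0.18. Foxo3, a transcription factor that induces Pdk4 in muscle, rose on day 3 (0.27, limma, adjusted p = 0.0445) and day 7 (1.63, adjusted p = 9.21e-05). Its levels were -4.70 and -4.65 on the normoxia arrays, -4.48 and -4.37 on the day 1 arrays, -4.37 and -4.43 on the day 3 arrays, and -3.15 and -2.94 on the day 7 arrays. Ppargc1a, a coactivator of mitochondrial genes, fell on all days (-0.47, -0.36 and -0.74, adjusted p = 0.0104, 0.0175 and 0.000897). Ppara fell on day 1 (-0.50, adjusted p = 0.0223) and rose on day 3 (0.60, adjusted p = 0.00852). Pparg fell on day 3 (-0.47, adjusted p = 0.0168) and day 7 (-0.66, adjusted p = 0.00373). The signals of Foxo3, Ppara and Pparg were dim. On the normoxia arrays Ppara was at -4.7 and -4.75, and Pparg at -4.65 and -4.76.

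**Figure D4:**
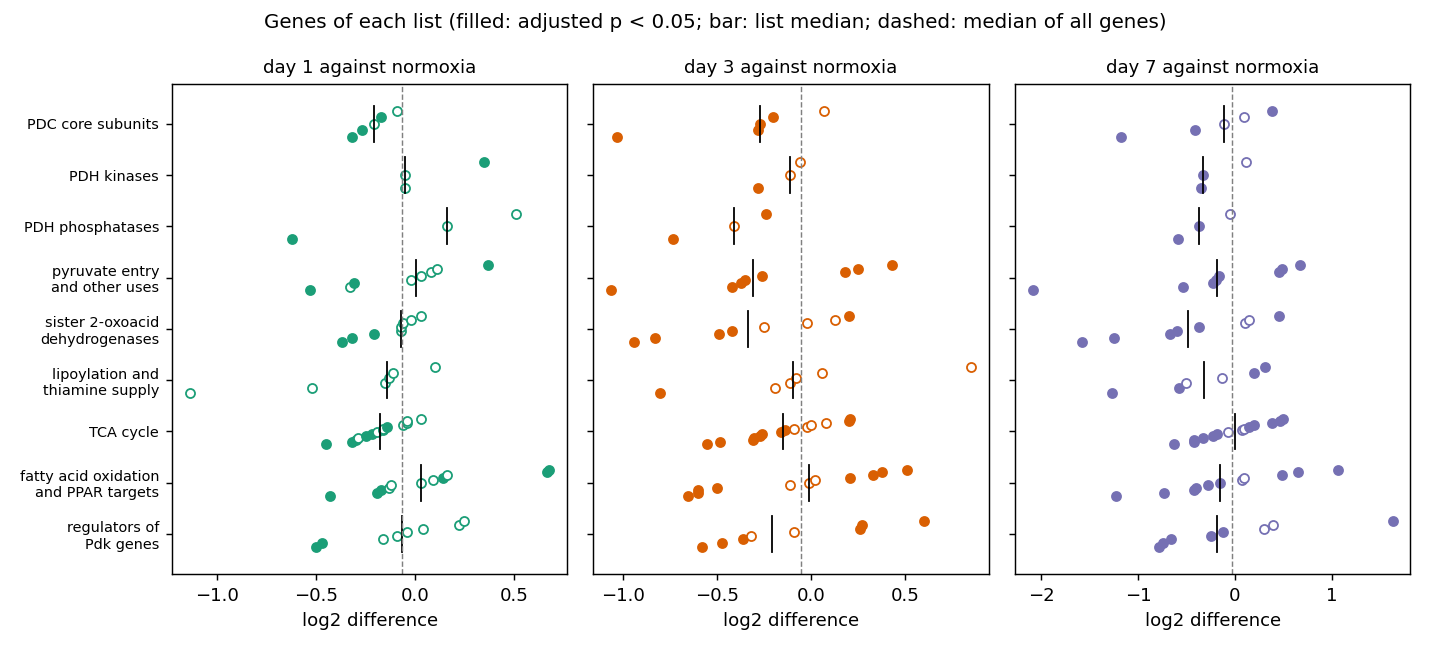
Log2 difference from normoxia (horizontal axis, own range per panel) of every tested gene in 9 lists, on days 1, 3 and 7. Filled points have an adjusted p under 0.05, bars are list medians and the dashed line is the median of all genes (-0.068, -0.051 and -0.033); on day 1 the pyruvate and fatty acid oxidation lists hold called genes on both sides of 0, and the lowest point among the core subunits on days 3 and 7 is Pdhb.

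**Figure D5:**
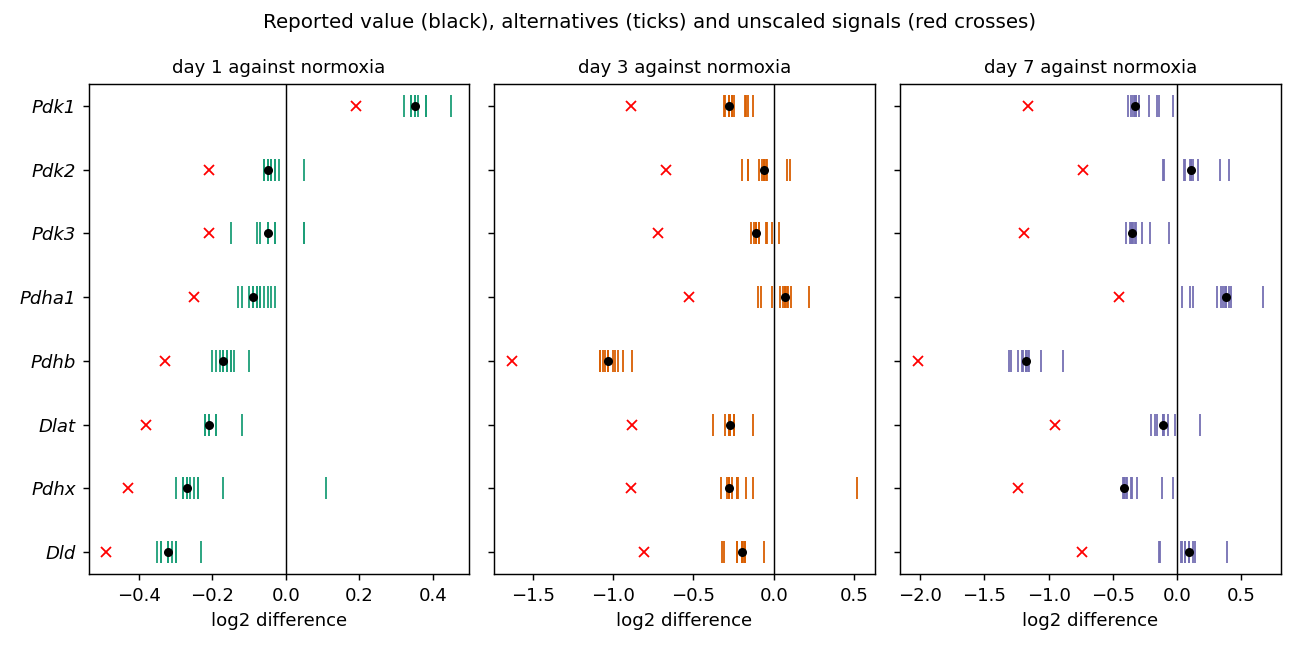
Log2 difference from normoxia of the 8 tested genes (rows) on days 1, 3 and 7 as reported (black), under each alternative processing (ticks) and on unscaled signals (red crosses). Pdhb stays between -1.63 and -0.88 on day 3 and between -2.02 and -0.89 on day 7, while Pdk2, Pdha1, Dlat and Dld have day 7 values on both sides of 0.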

How the data were processed

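Per the file headers, the scanner files deposited by the authors were written by Agilent Feature Extraction 11.5.1.1 and hold a processed signal intensity for each spot, with background subtracted and no scaling between arrays; the software is also named in the submitters' processing notes. The deposited values of the series are log2 numbers with unstated scaling, direction or centring beyond what was found here: 96.7% to 97.4% lay within 0.05 of the scanner values after 1 constant per array (column medians -3.53 to -3.23). They served as an alternative.

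Control and outlier-flagged spots were left out, spots of a probe averaged on the log2 scale, and the 75th percentile of the array (30367 probes) subtracted. Kept probes had a signal well above background on each array of 1 group or more (24678 of 30346 complete probes), and a gene was its kept probe of highest mean, which gave 21296 genes. limma 3.58.1 in R 4.3.3 fitted a mean per group (4 residual degrees of freedom, two-sided tests). Samples were grouped by their labels. Members, lists and the rule for named genes (up to 4 per list with the smallest adjusted p against normoxia, with Ldha, Mpc1, Mpc2, Pdp1 and Angptl4 always) were chosen with earlier results of these data known. In the lipoylation and thiamine list, 1 gene is not reported here and its counts leave it out. The analysis along the transcript was added after the data were seen. Arrays of the same number were not treated as pairs (deviations correlated at -0.15 to 0.05 between groups). These correlations do not settle whether they were made as pairs. The procedure was tested on simulated data. Probe names and rn4 coordinates are those of the array files; promoters are from RefSeq on GRCr8, where all 9 genes matched. Data were handled with the R package data.table (version 1.17.8), pandas 2.3.3 and numpy 2.4.6 and plotted with matplotlib 3.10.9 in Python 3.11.15.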

Additional observations from a re-analysis of the deposited data

Results flagged for a closer look

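Steps between exposure groups in which the test of the step itself passed the threshold are listed here, since the effect relative to normoxia then differs between times. For day 3 against day 1, Pdk1 differed by -0.63, Pdha1 by 0.16 and Pdhb by -0.85 (limma, adjusted p = 0.000294, 0.0361 and 0.000176). For day 7 against day 3, Pdk2 differed by 0.17, Pdk3 by -0.24, Pdha1 by 0.31, Pdhb by -0.16 and Dld by 0.30 (limma, adjusted p = 0.0357, 0.0458, 0.00579, 0.0348 and 0.00761). The steps of Pdk1 and Pdhb for day 3 against day 1 were called in all 18 alternatives. In contrast, Pdha1 for day 3 against day 1 kept its call in 7 of 18. For day 7 against day 3, Pdha1 kept it in 16 of 19 and Dld in 17 of 19, while Pdk2 kept it in 8, Pdk3 in 9 and Pdhb in 7 of 19.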

How the results depend on the processing

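Falls of Pdhb on days 3 and 7, the day 1 fall of Dld and the steps of Pdk1 and Pdhb for day 3 against day 1 were called in every alternative, the fold threshold below apart. The rise of Pdk1 on day 1 was called in 17 of 18. For these genes no alternative changes the probe, the slide row or column, or the tissue in the sample. Day 1 and normoxia share a slide row and differ in slide column. Arrays have no depth, and 2 per group limit the precision; dim probes limit Pdk4 and the second Pdhx probe. The scaling mattered most. Over all genes the median shift on days 1, 3 and 7 was -0.04, 0.10 and 0.26 under median centring and -0.23, -0.66 and -0.87 on unscaled signals. Called genes that were higher made up 43.1%, 48.0% and 51.5% as reported, 48.4%, 66.7% and 73.0% under median centring, 47.3%, 67.8% and 71.5% under normexp, 17.0%, 2.3% and 1.3% unscaled, and 59.1% on day 1 with the probe GC trend removed. For day 3 against day 1 and day 7 against day 3 they made up 55.1% and 57.0% as reported, 69.0% and 77.1% under median centring, 70.7% and 63.1% under normexp, and 5.3% and 8.3% unscaled.

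Directions turned as follows; the cause was not tested. Under quantile normalization, Pdha1 on day 3 was -0.08, Pdk2 on day 7 -0.11 and Dld on day 7 -0.14; for day 3 against day 1, Pdk3 was 0.01, Pdha1 0.00, Pdhx 0.07 and Dld -0.01; Pdk1 for day 7 against day 3 was 0.04. Under median centring, Pdk2 and Pdk3 on day 3 were 0.08 and 0.03 and Dlat on day 7 was 0.18. For day 3 against day 1, it gave Pdk2 0.11, Pdk3 0.06, Dlat 0.06 and Pdhx 0.11, and for day 7 against day 3 Pdk1 0.10 and Pdhx 0.02. Under cyclic loess, Pdha1 on day 3 was -0.10, Pdk2 on day 7 -0.10 and Dld on day 7 -0.13. For day 3 against day 1, it gave Pdha1 -0.04, Pdhx 0.01 and Dld -0.01, and for day 7 against day 3 Pdk1 0.00. Unscaled, Pdha1 on day 3 was -0.53, and Pdk2, Pdha1 and Dld on day 7 were -0.73, -0.45 and -0.74. Unscaled for day 3 against day 1, Pdha1 was -0.29 and Dld -0.33, and for day 7 against day 3 Pdk2 was -0.05 and Dlat -0.06. Under normexp, Pdk3 and Pdhx for day 3 against day 1 were each 0.07. With the mean of both probes, Pdhx was 0.11 on day 1, 0.52 on day 3 and 0.42 for day 3 against day 1. With the GC trend removed, Pdk2 and Pdk3 on day 1 were each 0.05, Pdk2 on day 3 was 0.10, Pdha1 on day 3 -0.01 and Pdk2 for day 3 against day 1 0.04. Without 1 day 1 array, Pdk3 was 0.05 or -0.15 on day 1 and 0.04 or -0.16 for day 3 against day 1, by which array was left out. Without the first day 3 array Pdhx for day 3 against day 1 was 0.04, and without the second Pdk2 was 0.01.

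Of the 8 tested genes, 4, 5 and 5 were called on days 1, 3 and 7, 3 for day 3 against day 1, and 5 for day 7 against day 3. Unscaled, these were 2, 8, 8, 7 and 1, where the median of all genes was itself -0.23, -0.66, -0.87, -0.42 and -0.17. The last count was 3 under quantile normalization, normexp, GC removal and without the day 1 arrays, and 2 under cyclic loess, no filter, only the groups compared and the replicate block. Day 1 gave 2 under normexp, and day 3 gave 2 under median centring. A fold of at least 2 left 0, 1, 1, 0 and 0 by limma (Pdhb in each case of 1), and 761, 1509, 2420, 1380 and 650 of all genes. All genes called numbered 4614 on day 1 and 4686 for day 7 against day 3 unscaled, and 5358 for day 7 against day 3 with only those groups, against 7559, 9034 and 9034 as reported. Leaving out 1 array at a time gave 4350 to 5057 genes and 2 to 3 members on day 1, 3 to 4 members on day 3, 5 to 6 on day 7, 2 for day 3 against day 1, and 2 to 4 for day 7 against day 3; the lone array of a group was taken to vary like the others. With the replicate number as a block the genes called were 6932, 10290 and 12702 on days 1, 3 and 7. The block ended the call of Pdhb on day 1 (-0.17, adjusted p = 0.0513) and 3 calls for day 7 against day 3.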
